A study of Mus musculus with 2 samples.

Results

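The genes described are 10 integrin subunits of the skin that are not part of the hemidesmosome: the alpha subunits Itga2, Itga3, Itga5, Itga9 and Itgav and the beta subunits Itgb1, Itgb3, Itgb5, Itgb6 and Itgb8. They were taken by symbol, with every probe set that the array's annotation gives to that gene alone, and all 10 were found among the 18193 genes on the array. RNA came from back skin hair follicles of CD-1 mice at postnatal day 4 that carried the transgenes K14-RFP and Sox9-EGFP, so both groups share strain, age and both reporters. The early bulge group was sorted as bright for EGFP and RFP, and the non-bulge outer root sheath (ORS) group as bright for RFP and negative for EGFP. The K14 promoter is active in basal keratinocytes, and Sox9 is a transcription factor of follicle stem cells. The signal of Sox9 itself was 4061 in early bulge and 676.1 in ORS on its brightest probe set (log2 ratio 2.59). Its 2 others gave ratios of 1.07 and 0.30. The last of these read 71.0 and 20.0, with ORS below the signal floor given in the next paragraph, so 0.30 is a lower bound. Each group is 1 sample on 1 Affymetrix array. The sources used here do not state how many pups were pooled.

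With 1 array per group there are no replicates behind any ratio and no test was possible. Values are MAS5 signals, a linear probe set intensity that the authors scaled to the same mean on both arrays. Signals under 57.8, the 40th percentile of the signals of all non-control probe sets on both arrays, were set to that floor, and a gene was measured when its brightest probe set reached the floor on at least 1 array. Ratios are early bulge over ORS on the log2 scale. Signals of different probe sets depend on their probes, so levels are compared between arrays and never between genes. Because the RNA is from bulk sorted cells, fewer cells of a type and less RNA per cell cannot be told apart.

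Integrins are receptors made of 1 alpha and 1 beta subunit that anchor cells to the extracellular matrix and signal through adaptor proteins bound to their cytoplasmic tails. In the basal layer of skin the integrin α6β4 builds the hemidesmosome, whereas many, but not all, integrins that contain Itgb1 or Itgav act at focal adhesions, which connect to actin. The subunit encoded by Itgb1 pairs with α2 to bind collagen, with α3 to bind laminins, with α5 to bind fibronectin and with α9 to bind tenascin-C and related ligands. The αv subunit pairs with several beta subunits. Of these, β6 and β8 bind latent TGF-beta, in the forms encoded by Tgfb1 and Tgfb3, and release or present the active growth factor.

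Markers of other cells differed between the arrays. All 13 measured dermal fibroblast markers passed 2-fold towards ORS (log2 ratios from -4.90 to -1.66), and their summed signal was 69329 there against 6158 on the early bulge array. The same held for 5 of 8 markers of pericytes and smooth muscle and for 5 of 6 of the hair matrix and inner root sheath. The 7 matched basal keratinocyte markers were all brighter in early bulge (median log2 ratio 0.81), from 0.13 for Perp, a desmosomal membrane protein, to 2.38 for Col17a1, the hemidesmosome collagen. All 7 suprabasal and upper follicle markers passed 2-fold towards early bulge. Few markers of other types were above the floor: 3 of 8 endothelial markers, with Pecam1 and Cdh5 below it on both arrays and Tek 4.09-fold brighter in ORS, 4 of 8 immune markers, with Ptprc below it, and, apart from Itga2b, 1 of 4 matched platelet markers. Of 8 melanocyte markers 7 were less than 2-fold apart and Kit was higher on the ORS array. Of 6 measured dermal papilla markers 2 passed 2-fold towards ORS, and Sox2 was below the floor on both. The part of these cells in the integrin ratios was not tested.

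Of the 10 integrin genes, 9 were measured, 1 of them passed 2-fold towards early bulge, none passed it towards ORS and 8 lay within 2-fold. Over all 13252 measured genes, 7.3% passed 2-fold towards early bulge and 4.78% towards ORS, 12.1% in all. The median log2 ratio of the 9 genes was -0.10, against 0.04 over all measured genes. At any size 2 of the 9, Itgb6 and Itgb8, were brighter in early bulge and 7 in ORS, but most of these ratios were close to 0 and 4 signs depended on the processing. Itgb6 took the opposite sign when the arrays were centred on their medians, and Itga5, Itgav and Itgb5 did under other alternatives. With the mean over the probe sets of a gene, 5 were brighter in early bulge and 4 in ORS. Over all measured genes 53.0% were brighter in early bulge. Median centring lowered the median of all genes to -0.17. It also lowered the share of 2-fold calls that lay on the early bulge side from 60.4% to 41.0%.

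**Figure D1:**
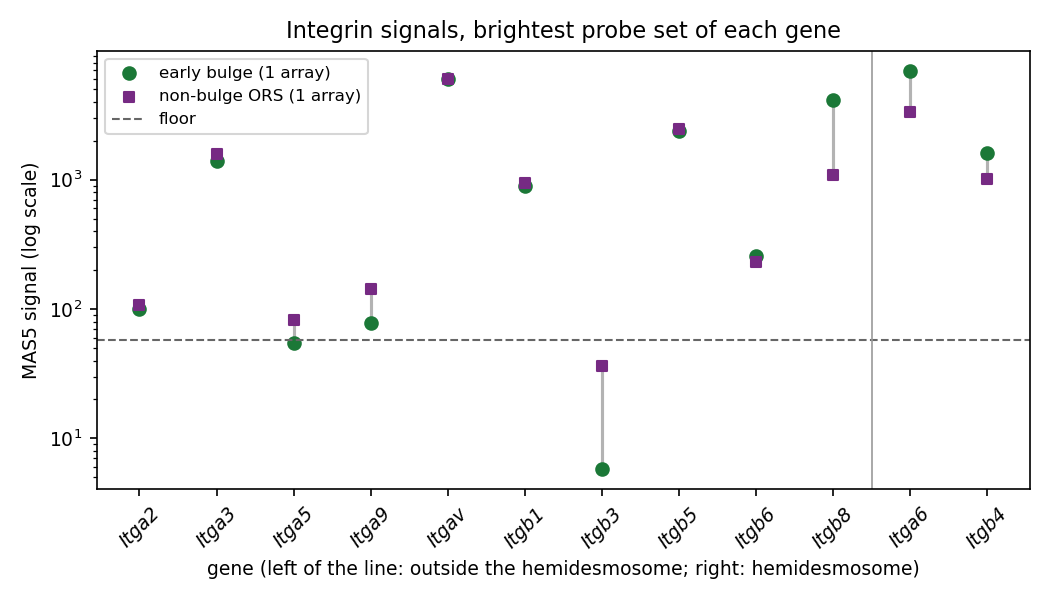
MAS5 signal (log scale) of the brightest probe set of each integrin gene on the early bulge array (green circles) and the ORS array (purple squares), 1 array each, with the floor of 57.8 as a dashed line. Itgb8 has the widest gap among the 10 genes left of the vertical line with a signal above the floor, Itgb3 lies below the floor on both arrays, and the hemidesmosome genes Itga6 and Itgb4 stand on the right.

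The one integrin gene of this group that was 2-fold apart was Itgb8, which encodes the β8 subunit. Its signal was 4115 in early bulge and 1081 in ORS, a 3.81-fold difference (log2 ratio 1.93). Both signals were far above the floor, so the ratio is not a bound. Of all measured genes 267 (2.01%) had a larger ratio towards early bulge. Among 1637 genes with a mean log2 signal within 0.5 of that of Itgb8, 27 (1.65%) did. The gene has 1 probe set on this array, so no other probe set checks it, and probe sets of 1 gene differed in log2 ratio with an SD of 0.56 over 10844 pairs.

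The other beta subunit that binds latent TGF-beta, Itgb6, an epithelial gene, did not show such a gap. It had signals of 255.8 and 230.6 (log2 ratio 0.15) on its brighter probe set, in the order early bulge and ORS that is kept from here on. The other probe set gave 164.3 and 136.2 (0.27). Both probe sets were less than 2-fold apart.

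Itgb5 encodes the β5 subunit, with which αv binds vitronectin. It had 4 measured probe sets, and all of them gave nearly equal signals on both arrays. They read 2374 and 2474, 1934 and 1729, 1597 and 1566, and 821.2 and 714.7, with log2 ratios from -0.06 to 0.20. The brightest of them was slightly higher on the ORS array and the other 3 on the early bulge array. Itgav itself, the alpha subunit that these beta chains share, was bright and equal: 5981 and 6046 on its main probe set (log2 ratio -0.02). A second probe set of Itgav near the floor gave 74.2 and 47.4 (log2 ratio 0.36, with the second signal at the floor). The 3 others lay below the floor on both arrays. Thus among the subunits of αv integrins Itgb8 was 2-fold apart, and Itgav, Itgb5 and Itgb6 were not, nor was Itgb1, which also pairs with αv.

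Itgb3, the β3 subunit of the receptor on platelets and endothelium, was the one gene of the 10 below the floor. Its probe sets read 5.77 and 36.4, and 6.80 and 7.90. Negative control (TrpnX) probe sets read up to 28.1, so 3 of these 4 signals lay under that level. Its ratio is not ordered here. Its platelet partner Itga2b did have signal on both arrays (490.0 and 540.6, log2 ratio -0.14), while the platelet glycoprotein genes Gp9 and Gp6 lay below the floor on both.

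The sequences before the annotated start of Itgb8, Itgb6 and Itgb5 are shown because Itgb8 was 2-fold apart and these other αv partners were not. Each is the 250 bases before a RefSeq start in GRCm38.p6, written 5′ to 3′ on the strand of the gene. Capitals mark matches, on either strand, to the GC box (GGGCGG), the AP-1 site (TGANTCA) or a Sox core (ACAAAG). Sox9 is the gene whose reporter separates the groups. The Itgb8 window is chr12:119238277-119238526 (minus strand), the Itgb6 window chr2:60722604-60722853 (minus strand, the first of 2 annotated starts) and the Itgb5 window chr16:33829415-33829664 (plus strand).
Itgb8: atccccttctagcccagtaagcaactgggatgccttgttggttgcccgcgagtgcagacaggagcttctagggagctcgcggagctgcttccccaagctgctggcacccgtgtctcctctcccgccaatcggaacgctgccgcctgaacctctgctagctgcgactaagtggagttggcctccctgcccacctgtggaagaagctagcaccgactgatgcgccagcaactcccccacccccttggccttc
Itgb6: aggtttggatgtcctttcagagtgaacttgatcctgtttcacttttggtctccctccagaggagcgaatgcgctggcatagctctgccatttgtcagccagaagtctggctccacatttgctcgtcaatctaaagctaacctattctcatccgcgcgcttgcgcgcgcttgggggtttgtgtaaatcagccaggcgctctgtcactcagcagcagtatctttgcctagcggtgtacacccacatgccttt
Itgb5: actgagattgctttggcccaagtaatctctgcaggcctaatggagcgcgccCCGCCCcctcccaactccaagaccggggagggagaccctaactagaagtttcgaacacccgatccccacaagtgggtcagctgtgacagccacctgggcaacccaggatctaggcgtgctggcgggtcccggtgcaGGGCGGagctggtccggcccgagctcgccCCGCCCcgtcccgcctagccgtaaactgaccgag
The Itgb5 window holds 3 GC boxes and none of the other motifs, and the Itgb8 and Itgb6 windows hold none of the 3 motifs. Itgb1 also pairs with αv and was not 2-fold apart. Its window, not printed here, holds 1 GC box, 1 Sox core and no AP-1 site. Among 32536 such windows of mouse genes, 33.0% hold a GC box, 6.73% an AP-1 site and 16.5% a Sox core. The G and C share is 62.4% for Itgb8, 52.0% for Itgb6 and 65.2% for Itgb5, against a median of 52.4%. No match means only that these letters are not in this window.

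Itgb1, the common partner of the collagen, laminin and fibronectin receptors, was nearly equal on both arrays. Its brightest probe set read 888.3 and 951.6 (log2 ratio -0.10) and the next 647.0 and 740.9 (-0.20). Both were slightly higher on the ORS array. The other 4 of its 6 probe sets lay below the floor on both arrays, with signals of at most 38.3 and 50.5, and bear no ratio.

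The alpha partners of Itgb1 were also less than 2-fold apart. Itga3, the α3 chain of the laminin-332 receptor, had 3 measured probe sets, all brighter in ORS. They read 1388 and 1569 (log2 ratio -0.18), 263.9 and 360.8 (-0.45), and 52.7 and 63.8 (-0.14, with the first at the floor). Itga2, the α2 chain of a collagen receptor, has 1 probe set, which was dim and nearly equal (100.1 and 108.0, log2 ratio -0.11).

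The probe sets of Itga5, the α5 chain of the classical fibronectin receptor, went opposite ways. The brightest read 54.8 and 82.7 and the next 83.8 and 49.3, each with 1 array below the floor, so their log2 ratios of -0.52 and 0.54 are bounds. The other 2 lay below the floor on both arrays. No direction can be given for Itga5 from these signals.

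Itga9, the α9 chain that binds tenascin-C, had the ratio nearest to 2-fold on the ORS side. Its signals were 78.5 and 142.0 (log2 ratio -0.85, 1.81-fold higher on the ORS array), both above the floor but dim, and its other 2 probe sets were below the floor on both arrays. After median centring, quantile normalization and loess scaling the log2 ratio reached -1.07, -1.07 and -1.06, past 2-fold. With a pseudocount as large as the floor it was -0.55, within 2-fold. With a higher floor (60th percentile) Itga9 was not measured. Dermal fibroblast and smooth muscle markers were higher on the same array, as given above, and their part in the Itga9 ratio was not tested.

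**Figure D2:**
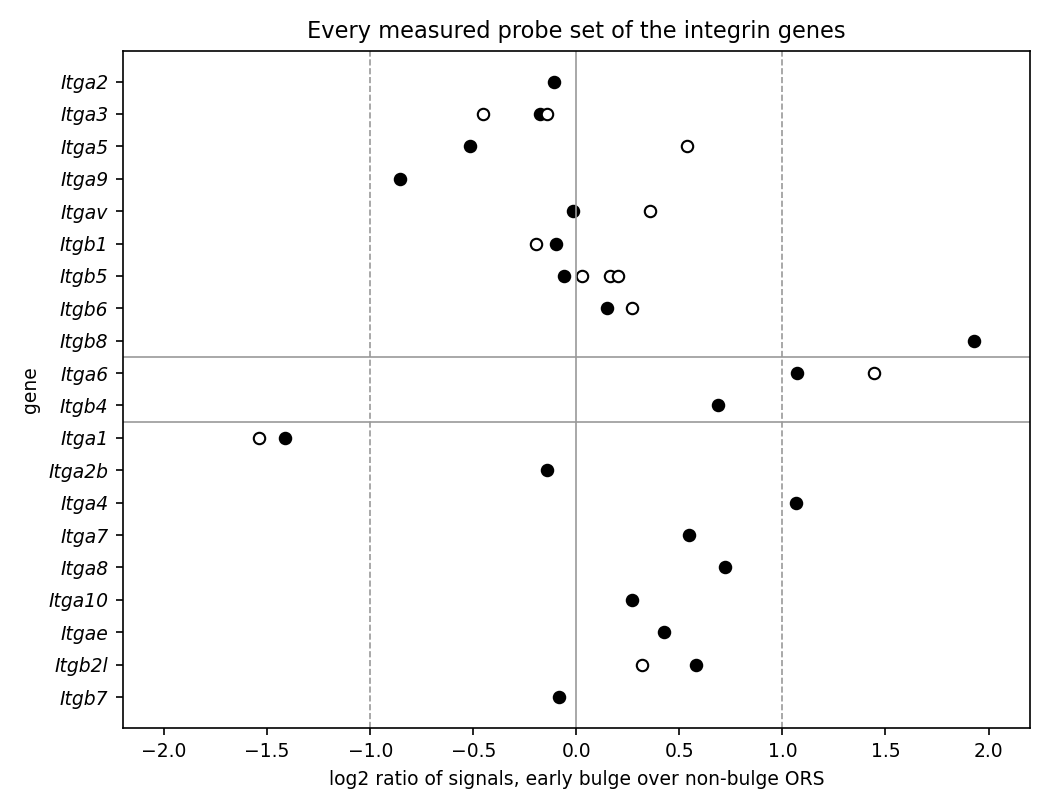
Log2 ratio of early bulge over ORS signal for every measured probe set of the integrin genes, with the brightest probe set of each gene filled and others open, and dashed lines at 2-fold. From top to bottom the blocks are the 9 measured genes outside the hemidesmosome, the hemidesmosome genes and the other integrins; Itgb8 lies at 1.93, the probe sets of Itga5 fall on both sides of 0, and those of Itga6 lie at 1.07 and 1.45.

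The 10 genes had 31 probe sets in all. Of these, 18 were measured and 17 of the 18 were less than 2-fold apart; the exception was that of Itgb8. Both hemidesmosome subunits, in contrast to most of these genes, were brighter in early bulge. Itga6 read 6969 and 3314 (log2 ratio 1.07), with a second probe set at 2985 and 1096 (1.45). Itgb4 read 1616 and 1005 (0.69). After median centring the log2 ratio of Itga6 was 0.86, within 2-fold. The difference between the groups of integrins has no test, since each ratio is from 1 array per population. Set against the basal keratinocyte markers, whose median log2 ratio was 0.81, the ratio of Itgb8 stayed 2-fold (1.12 above that median), Itga6 and Itgb4 lay near it (0.27 and -0.12), and the 8 other measured genes lay from -1.66 (Itga9) to -0.66 (Itgb6) relative to it. This reference was chosen after the data were seen, and it puts Itga5 and Itga9 past 2-fold towards ORS.

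Of the 15 other integrin genes listed, 13 had a probe set of their own and 9 were measured. Across all measured genes 12.1% were at least 2-fold apart either way. Itga4, a chain of fibronectin and VCAM receptors, passed 2-fold towards early bulge (242.9 and 116.0, log2 ratio 1.07). It lay within 2-fold under 5 of 9 alternatives in processing, and its other 4 probe sets were below the floor on both arrays. Itga1, the α1 chain of a collagen receptor found on fibroblasts and smooth muscle, was 2.67-fold brighter in ORS (320.1 and 853.2, log2 ratio -1.41, with a second probe set at -1.54). Markers of those cells were also higher on that array, and their part was not tested. The other 7 were less than 2-fold apart, among them Itga8, named here after its values were seen (266.4 and 161.4, log2 ratio 0.72), which encodes the chain that binds nephronectin. The leukocyte integrin genes Itgal, Itgam, Itgax and Itgb2 were below the floor on both arrays.

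Ligand genes of the integrins included large ratios both ways. Of 25 measured, 4 passed 2-fold towards early bulge, 10 towards ORS, and 11 lay within 2-fold (median log2 ratio -0.21). The shares over all measured genes were 7.3% towards early bulge and 4.78% towards ORS. The largest ligand ratio towards early bulge was that of Npnt, nephronectin, a basement membrane ligand (8261 and 480.5, log2 ratio 4.10, with 4 other probe sets from 1.09 to 4.31). The largest towards ORS were the fibrillar collagen genes Col1a2 (log2 ratio -3.75), Col3a1 (-3.60) and Col1a1 (-3.35), which also stand in the fibroblast marker list. Fibronectin, Fn1, the ligand of α5β1 and αv integrins, was 7.17-fold brighter in ORS (967.9 and 6938). Tnc, which encodes the α9 ligand tenascin-C, had high signals on both arrays (2441 and 1898, log2 ratio 0.36, with another probe set at 1.04). Svep1 (8.38 and 312.2) and Emilin1 (4.67 and 189.0), named after their values were seen, also encode α9 ligands. Both passed 2-fold towards ORS. Their early bulge signals were below the floor, so the log2 ratios of -2.43 and -1.71 are bounds.

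Genes of the TGF-beta pathway were listed because αvβ6 and αvβ8 bind latent TGF-beta, and they included ratios larger than that of Itgb8. Of 14 measured genes of this list 4 passed 2-fold towards early bulge, 1 towards ORS, and 9 lay within 2-fold. For comparison, 7.3% of all measured genes passed 2-fold towards early bulge and 4.78% towards ORS. The median log2 ratio of the list was -0.05 and the mean had the opposite sign (0.52). The ligand Tgfb3 read 3209 and 367.0 (log2 ratio 3.13) and Tgfb2 5656 and 976.8 (2.53, with 3 other probe sets from 1.79 to 2.34), whose latent form lacks the motif that these integrins bind. The latent TGF-beta binding protein Ltbp1 read 2062 and 258.1, a 7.99-fold difference. Tgfbi, a matrix protein induced by TGF-beta, read 4600 and 1513 (1.60). Tgfb1 was dim and nearly equal on its brighter probe set (150.6 and 173.6, log2 ratio -0.21), and the other gave 0.49. The gene on the ORS side was the inhibitory Smad7 (log2 ratio -1.12, with another probe set at -0.17), named after its value was seen.

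The adaptor list held genes of proteins that link integrin tails to actin and of others, such as kinases. Of 26 measured adaptor genes 19 were brighter in ORS, none by 2-fold on its brightest probe set. The other 7 were brighter in early bulge, 2 of them by 2-fold. The median log2 ratio of the list was -0.32, against 0.04 over all measured genes. The 2 of 26 are a share near the 7.3% of all measured genes that passed 2-fold towards early bulge. Towards ORS 4.78% of all measured genes did, and at any size 53.0% were brighter in early bulge. Other probe sets of Parva and Kank1, named after their values were seen, passed 2-fold towards ORS (-1.05 and -1.21). Under the 3 other scalings 19 were again on the ORS side, 5 of them by 2-fold after median centring and 1 each after quantile normalization and loess scaling. With the mean over the probe sets of a gene, 17 were brighter in ORS and 9 in early bulge (median log2 ratio -0.22). The tensin genes Tns2 (351.8 and 112.0, log2 ratio 1.65) and Tns3 (5754 and 2138, 1.43) were higher on the early bulge array, but another probe set of Tns3 gave -0.37. Tgfb1i1, which encodes the focal adhesion protein Hic-5, and Zyx, zyxin, had ratios of -0.97 and -0.92 on the log2 scale; a second Zyx probe set gave 1.10. The kindlin gene of keratinocytes, Fermt1, was listed but matched no probe set given to that gene alone, so it has no ratio here.

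Of 9 membrane partners of integrins 8 were less than 2-fold apart and 1 was not, a share near the 12.1% of all genes that were 2-fold apart (median log2 ratio 0.08, and -0.14 after median centring). The exception was the caveolin gene Cav1 (10831 and 3732, log2 ratio 1.54). Slc3a2, the CD98 heavy chain that binds beta subunits, had a log2 ratio of -0.86, and the tetraspanin Cd82 and the syndecan Sdc4 had 0.60 and 0.29, with another probe set of Cd82 at 1.13.

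**Figure D3:**
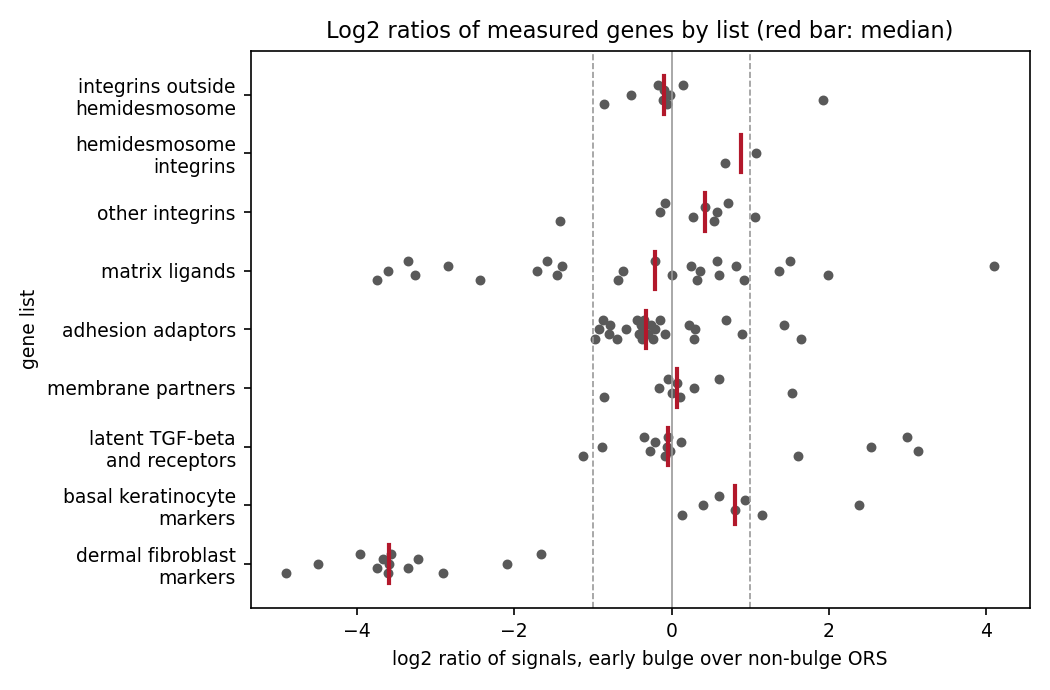
Log2 ratio of early bulge over ORS signal of each measured gene, by list, with a red bar at the median of the list and dashed lines at 2-fold; points are spread vertically only for visibility. The integrins outside the hemidesmosome centre on -0.10 with Itgb8 apart at 1.93, matrix ligands run from -3.75 to 4.10, and all dermal fibroblast markers lie below -1.

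Over only 2 arrays, the likeness of genes is no more than the nearness of 2 signals. By distance of the 2 log2 signals, the genes nearest to Itgb8 were Clstn1 (4005 and 1171), Irx4 (4473 and 1175) and Depp1 (3636 and 1078), at distances of 0.12, 0.17 and 0.18. Those nearest to Itga9 were Ripor2, Adat1 and Csf2ra, at distances of 0.0034, 0.036 and 0.040.

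Itgb8 has 1 probe set with signals far above every floor, so only the scalings and the pseudocount could move its ratio. The other alternatives left it at 1.93. Over the 9 alternatives in scaling, floor and choice of probe set its log2 ratio ran from 1.71 to 1.98. Those of Itga2, Itga3 and Itgb1 stayed below 0 in each alternative that gave a value and within 2-fold. Those of Itgav, Itgb5 and Itgb6 ran across 0 (-0.23 to 0.17, -0.28 to 0.20 and -0.07 to 0.21).

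**Figure D4:**
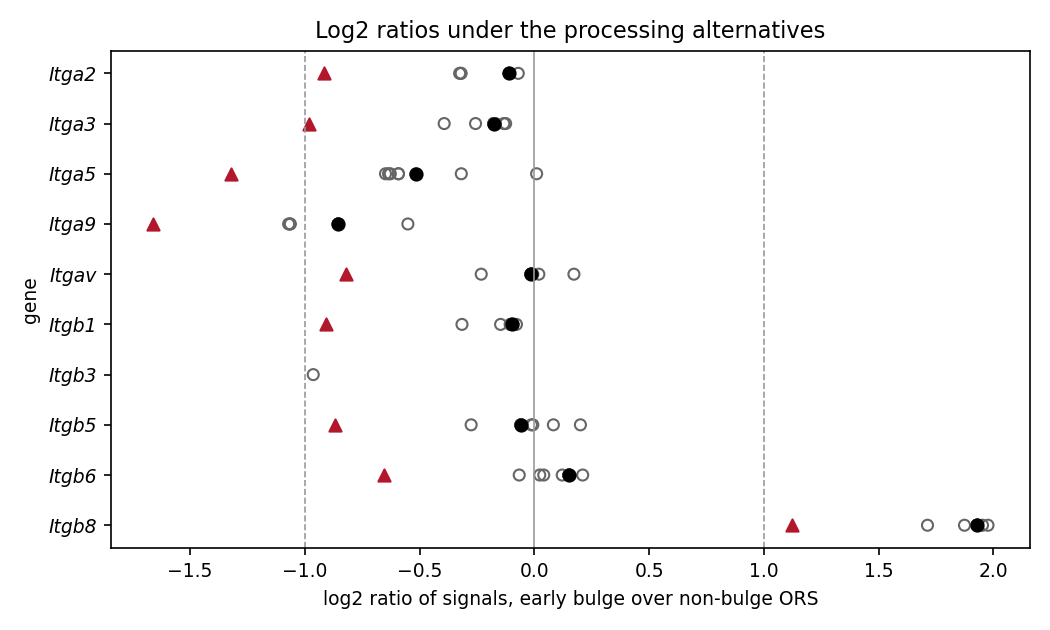
Log2 ratio of each gene as reported (filled circle), under the 9 other ways of processing (open circles) and relative to the median of the basal keratinocyte markers (red triangle), with dashed lines at 2-fold. Itgb8 stays beyond 2-fold throughout, from 1.12 to 1.98; Itga9 crosses 2-fold under some alternatives, and Itgb3 has a value of -0.96 only with the lower floor.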

How the data were processed

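RNA of 2 sorted populations was measured on 1 array each. Per the submitters' processing notes, which name no version, the authors computed the deposited signal intensity of each probe set, on a linear scale, with MAS5 in Affymetrix Expression Console. The 2% trimmed mean was 500.0 on both arrays. Low MAS5 signals are noisy, and the number of arrays limits precision. Detection calls were not used here. The sources used here name no genome build. From 45101 probe sets, the 34945 non-control ones with 1 gene symbol in the platform annotation were used, and symbols were checked against RefSeq by Entrez ID (GRCm38.p6). Where a gene had several, the one with the highest mean log2 signal stood for it.

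The named genes were all 10 integrins, Itga6, Itgb4, other integrins at least 2-fold apart, the 4 largest absolute ratios of each pathway list, chosen binding partners, and the 2 largest of each marker list, here given mostly as counts. Other names are marked or serve as marker examples. The integrins and the 17 lists were chosen with earlier results of these data known. Of 189 listed genes 177 matched a probe set. Alternatives were median centring, quantile normalization, loess scaling (span 0.4), a lower floor (20th percentile), a higher floor (60th percentile), none, a pseudocount as large as the floor, averaging the probe sets of a gene, and leaving out those with an _s, _x or _a suffix. A ratio relative to basal keratinocyte markers was added after seeing the data. Promoter sequences are from RefSeq (GRCm38.p6), with windows for 9 of the 10 integrins. The code ran on Python 3.11.15 with pandas 2.3.3 and statsmodels 0.14.6, and was tested on simulated data.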

Additional observations from a re-analysis of the deposited data

How the results depend on the processing

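Itgb8 was the 1 integrin of the 10 past 2-fold towards early bulge under each of the 9 alternatives and the added one. Only the scalings, the pseudocount and the added reference could change the ratio of Itgb8. The count of integrins past 2-fold towards ORS was 1 in place of 0 (Itga9) after median centring, quantile normalization and loess scaling, and 2 relative to basal keratinocyte markers (Itga5 and Itga9). Their median log2 ratio was -0.32 after median centring and -0.91 relative to those markers. For all genes, the count on the ORS side was 1017 after median centring, 984 with the lower floor and 4296 relative to those markers, against 634. The count on the early bulge side was 1870 with that floor, 616 with the higher floor, 1475 with no floor and 316 relative to those markers, against 968. The floor also changed the number of measured genes, from 13252 to 16376 with the lower floor and to 10076 with the higher one. Counts under those floors are thus out of unlike totals. The higher floor left 6 of the 10 integrins measured. The cause of these shifts was not tested. No paired analysis was possible because each group has 1 sample.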
